A study of Mus musculus with 17 samples.

Results

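The presynaptic vesicle release machinery was followed through 44 genes whose products store, dock, fuse and recover synaptic vesicles. They were taken by symbol from the 48440 gene identifiers of the expression table, and all 44 were found and tested among 14144 genes. The RNA came from whole frontal cortex of 17 male C57BL/6J mice at postnatal day 189. The dams of 9 mice received an intraperitoneal injection of Poly(I:C), 20 mg/kg in saline, at G12.5 (gestational day), and the dams of the other 8 received saline alone. Poly(I:C) mimics viral double-stranded RNA, and giving it in pregnancy models maternal immune activation. The question was how prenatal exposure relates to transcript levels in the adult cortex. The labels mention 11 dams and do not tie offspring to litters, so p-values treat littermates as independent animals.

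A nerve terminal holds transmitter in vesicles that are tethered by synapsins, docked at the active zone and fused with the plasma membrane when calcium enters. Fusion is driven by a SNARE bundle of synaptobrevin (Vamp) on the vesicle with syntaxin and SNAP-25 on the membrane, and it is timed by synaptotagmins and complexins. NSF with its SNAP adaptors then takes the bundle apart, and dynamin, endophilin, synaptojanin and clathrin adaptors retrieve the membrane. In cortex, different neuron classes use different paralogs, and fast-spiking parvalbumin interneurons are known for Syt2, Vamp1 and Cplx1.

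The tissue carried its defining markers in every library, with the cortical glutamate transporter Slc17a7 between 720.2 and 842 TPM (a transcript's length-adjusted share of the library, scaled to a fixed total) and the GABA-synthesizing enzyme Gad1 between 117 and 181 TPM. A pair of libraries differed from the rest in marker genes. In Poly(I:C) replicate 7 the 8 myelin markers summed to 3231 TPM, where the other libraries lay between 1558 and 2237 TPM, and the 8 striatal markers to 333 TPM, where the others lay between 187 and 263 TPM. Saline replicate 7 had a summed level of 5 olfactory bulb markers of 45.9 TPM, where the others lay between 4.65 and 8.13 TPM. Several results are therefore also given without both replicates numbered 7. In bulk tissue, fewer cells of a type and less RNA per cell cannot be told apart. TPM keeps no library depth, so depth is unknown.

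Together the 44 genes made up 1.33% ± 0.066 of all TPM after Poly(I:C) (SD, n = 9) and 1.33% ± 0.062 after saline (SD, n = 8). The 4 SNARE genes held 36.5% of this sum, the 5 endocytic genes 13.2% and the 9 calcium sensors 11.0%. The calcium sensor role holds the synaptotagmin and Doc2 genes by family, whether or not each product senses calcium. The 6 vesicle membrane genes summed to 1572 ± 81.3 TPM after Poly(I:C) (SD, n = 9) against 1627 ± 86.3 TPM after saline (SD, n = 8). The 3 complexins held 8.92%, the 3 SNARE disassembly genes 6.74%, the 3 synapsins 6.32% and the 11 active zone genes 5.38%. Levels of single genes ran over a wide range, from Doc2b, of the calcium sensor role, at 3.14 TPM to Snap25 at 3144 TPM over all 17 libraries. Among the SNARE genes, Vamp2 followed at 1331 TPM, Stx1a at 289.8 TPM and Vamp1 at 95.3 TPM.

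**Figure D1:**
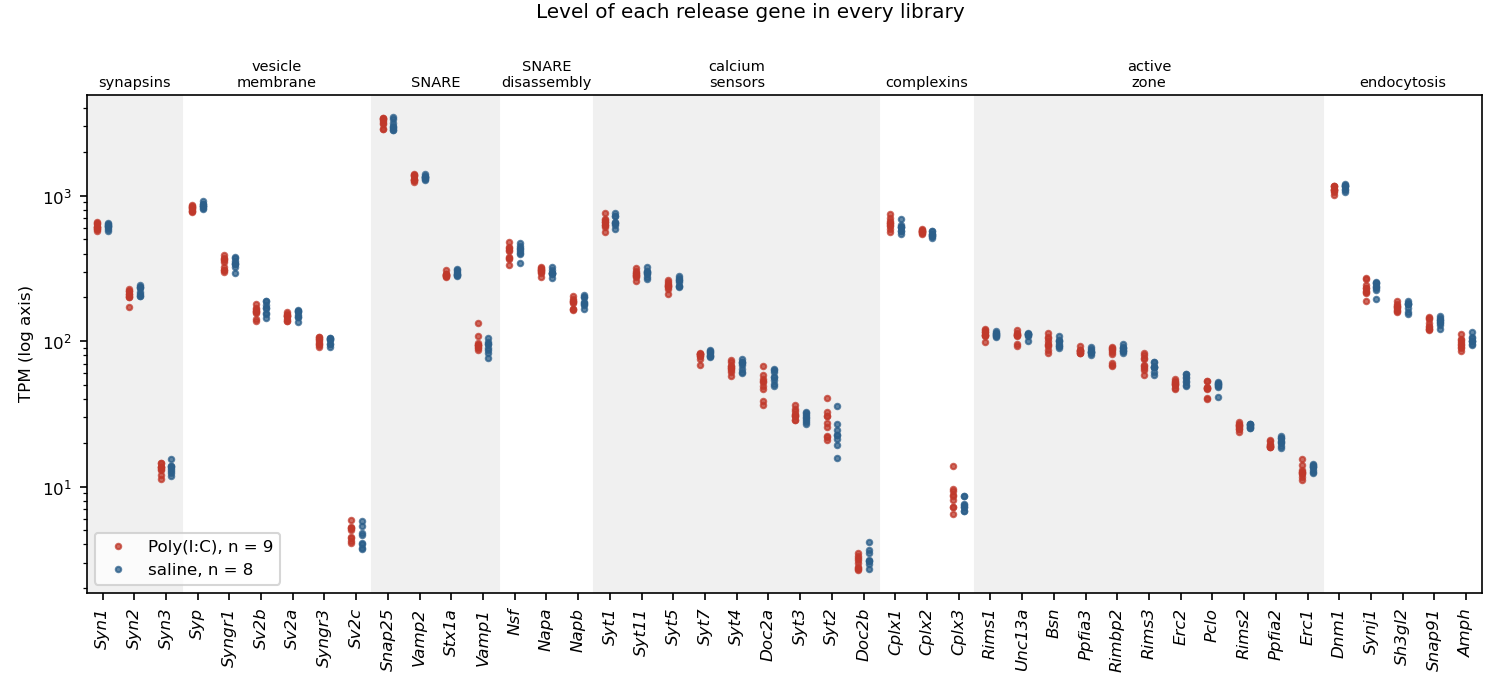
TPM of each of the 44 release genes on a log axis, grouped by role and ordered by mean level within a role, with 1 point per library (Poly(I:C), n = 9, and saline, n = 8). The 2 groups overlapped for all 44 genes, and Snap25 was the most abundant and Doc2b the least.

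Among the synapsins and the vesicle membrane genes, synaptophysin (Syp) stood at 837 TPM. It was followed by Syn1 at 614 TPM, Syngr1 at 343 TPM, Syn2 at 215 TPM, the SV2 glycoprotein genes Sv2b at 163 TPM and Sv2a at 150.2 TPM, and Syngr3 at 100.1 TPM. The third synapsin, Syn3, stood at 13.3 TPM and Sv2c, which is best known from the basal ganglia, at 4.71 TPM. Within the calcium sensor role, Syt1, the fast sensor of most forebrain synapses, was highest at 663 TPM. Syt11 followed at 291 TPM and Syt5 at 248 TPM. Syt7 (80.3 TPM), Syt4 (66.9 TPM), Doc2a (53.8 TPM), Syt3 (30.8 TPM) and Syt2 (26.0 TPM) lay lower in that order.

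Active zone genes were less abundant. The vesicle-priming scaffold Rims1 stood at 112 TPM, the priming factor Unc13a at 109 TPM and the large scaffold Bsn at 97.5 TPM, with Pclo at 48.2 TPM. Rims2 and Rims3, of the same family as Rims1, stood at 26.0 and 68.5 TPM, the calcium channel linker Rimbp2 at 84.5 TPM and the liprins Ppfia3 and Ppfia2 at 85.5 and 19.9 TPM. The least abundant of this role was Erc1 at 13.1 TPM, with its paralog Erc2 at 52.5 TPM. In recycling, the membrane-cutting GTPase Dnm1 stood at 1126 TPM, above Nsf at 412 TPM, Napa at 300.6 TPM and its paralog Napb at 185 TPM. The phosphatase Synj1 stood at 234 TPM, the endophilin Sh3gl2 at 173 TPM, the clathrin adaptor Snap91 at 134 TPM and the dynamin-binding Amph at 99.4 TPM. The complexins Cplx1, Cplx2 and Cplx3 stood at 626, 555 and 8.18 TPM.

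No release gene reached significance (adjusted p under 0.05) between the prenatal groups, and in no gene did the groups separate. The 3 complexins, clamps and activators of the SNARE bundle, had higher means in the Poly(I:C) group, as had Snap25, Vamp1, Syt2 and Syt3. Most other members had slightly lower means, among them Syp, Rimbp2, Erc2, Syt5 and Syn2. In limma over all genes 0 of 44 members and 0 of 14144 genes passed (0% called). At an unadjusted p under 0.05 there were 5 members, or 11.4%, beside 8.75% of all genes. Of these 1 was higher (0.898% of all genes) and 4 were lower (7.85% of all genes). An exact rank test gave 0 members at an adjusted p of 0.05 and 2 at an unadjusted p under 0.05 (4.55%), beside 0% and 8% of all genes. Groups without overlap were found for 0 members, and for 0.0283% of all genes.

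As deposited, 32 of 44 members were lower in the Poly(I:C) group (72.7%), beside 71.0% of all tested genes, and the median difference was -0.030 for members and -0.035 for all genes on the log2(TPM + 1) scale. Median-of-ratios scaling, which levels the median gene between libraries, left 20 members lower, beside 50.2% of all genes. Its median member difference was 0.0083. Under that scaling 5 members had an unadjusted p under 0.05, all higher, beside 7.35% of all genes (3.99% higher and 3.35% lower): Cplx1, Cplx2, Syt3, Snap25 and Napa. Without both replicates numbered 7 this count was 0 as deposited, beside 5.79% of all genes, and 4 (9.09%) after median-of-ratios scaling, beside 5.35% of all genes. In that last setting 0 members and 1 gene of all tested (0.00707%) passed the adjusted p. Quantile normalization left 61.4% of members lower, beside 49.3% of all genes. With median-of-ratios scaling and without both replicates numbered 7, 13 members (29.5%) were lower, beside 49.3% of all genes.

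**Figure D2:**
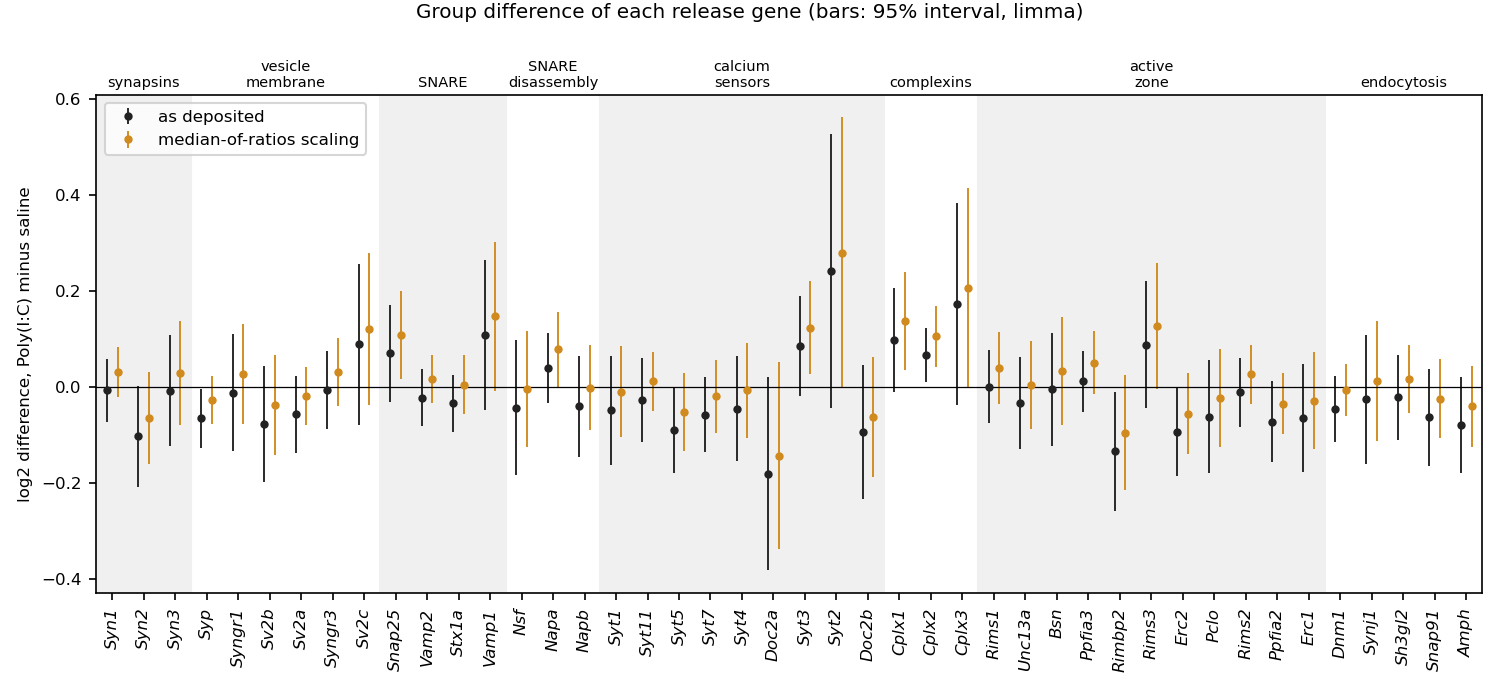
Difference of each release gene between the groups (Poly(I:C) minus saline, log2 scale) with its 95% interval from limma, before and after median-of-ratios scaling. The 3 complexins lie above 0 under both scalings, and most single-gene intervals include 0.

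Cplx2, the complexin of most excitatory terminals, had the smallest p of the set. Its level was 542 TPM in the lowest, 568.4 in the median and 586 in the highest Poly(I:C) library, against 509, 538 and 573 TPM in the saline group. All 9 Poly(I:C) libraries lay above the saline median, while the ranges overlapped. The difference was 0.067 ± 0.026 (SE, limma adjusted p = 0.534). It was 0.054 without both replicates numbered 7 and 0.105 after median-of-ratios scaling (limma adjusted p = 0.582). Cplx1 ran from 566 through 646 to 751 TPM in the Poly(I:C) group and from 542 through 607 to 689 TPM in the saline group, a difference of 0.098 ± 0.052 (adjusted p = 0.592). Cplx3, a complexin known from retina and deep cortical layers, ran from 6.46 through 8.66 to 13.8 TPM and from 6.75 through 7.34 to 8.64 TPM. Its difference of 0.17 ± 0.10 (adjusted p = 0.626) was 0.095 without Poly(I:C) replicate 7, which held the value of 13.8 TPM, 0.15 without saline replicate 7, and 0.076 without both. In each of 30 alternatives the differences of the 3 complexins were above 0, and in none did any of them pass. These alternatives share most libraries, and the rank test takes its difference from the fit of the deposited values. With Pvalb as a covariate, chosen after seeing the data, the differences of Cplx1, Cplx2 and Cplx3 were 0.0074, 0.049 and 0.020. Over all libraries these 3 genes varied with Pvalb (Pearson's r = 0.896, 0.569 and 0.792), and Pvalb had a higher mean after Poly(I:C). Smaller differences with this covariate follow from that and cannot tell why the groups differed.

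Rimbp2, which links RIM scaffolds to calcium channels, had the smallest p among members with a lower mean. It ran from 67.5 through 84.4 to 90.4 TPM in the Poly(I:C) group and from 83.5 through 88.3 to 96.1 TPM in the saline group. Poly(I:C) replicates 1, 3 and 7, at 70.7, 69.0 and 67.5 TPM, lay below every other library. Replicate 8, at 81.6 TPM, was also below the saline minimum, and the other 5 lay within the saline range. The difference was -0.13 ± 0.059 (adjusted p = 0.557). It was -0.097 without both replicates numbered 7 and -0.095 after median-of-ratios scaling. Syp ran from 774 through 823 to 869 TPM against 816, 852 and 919 TPM, with 1 of 9 Poly(I:C) libraries above the saline median. Its difference of -0.065 ± 0.029 (adjusted p = 0.566) was -0.042 without both replicates numbered 7 and -0.026 after median-of-ratios scaling.

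The ELKS scaffold gene Erc2 stood at 50.8 ± 2.57 TPM after Poly(I:C) (SD, n = 9) and 54.3 ± 4.02 TPM after saline (SD, n = 8), a difference of -0.093 ± 0.043 (limma adjusted p = 0.569) that was -0.061 without both replicates numbered 7 and -0.055 after median-of-ratios scaling. Syt5, a vesicle synaptotagmin, stood at 240.7 ± 14.9 TPM after Poly(I:C) (SD, n = 9) and 256 ± 15.9 TPM after saline (SD, n = 8), and Syn2 at 208 ± 16.5 TPM after Poly(I:C) (SD, n = 9) and 223 ± 15.5 TPM after saline (SD, n = 8). Their differences were -0.090 ± 0.042 (limma adjusted p = 0.569) and -0.10 ± 0.050 (limma adjusted p = 0.576). Without both replicates numbered 7 they were -0.054 and -0.056, and after median-of-ratios scaling -0.051 and -0.064. For both, 1 of 9 Poly(I:C) libraries lay above the saline median. The liprin gene Ppfia2 stood at 19.4 ± 0.800 TPM after Poly(I:C) (SD, n = 9) and 20.4 ± 1.34 TPM after saline (SD, n = 8). Its difference was -0.072 ± 0.041 (limma adjusted p = 0.619).

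For the core release genes Snap25, Vamp2, Stx1a, Syt1 and Syn1 the 95% interval of the difference included 0 as deposited. Snap25 stood at 3215 ± 224 TPM after Poly(I:C) (SD, n = 9) and 3064 ± 239 TPM after saline (SD, n = 8), a difference of 0.070 ± 0.048 (limma adjusted p = 0.673). After median-of-ratios scaling it was 0.11, with a 95% interval of 0.017 to 0.20 that excluded 0 (limma adjusted p = 0.621). After quantile normalization it was -0.077. Vamp2 stood at 1321 ± 57.6 TPM after Poly(I:C) (SD, n = 9) and 1341 ± 39.0 TPM after saline (SD, n = 8), Stx1a at 287 ± 10.1 TPM after Poly(I:C) (SD, n = 9) and 293 ± 11.3 TPM after saline (SD, n = 8). Their differences of -0.022 and -0.034 (limma adjusted p = 0.828 and 0.731) were 0.016 and 0.0049 after median-of-ratios scaling. Syt1, at 652 ± 56.0 and 674 ± 55.9 TPM, differed by -0.048 ± 0.054, with a 95% interval of -0.16 to 0.065, and by -0.019 without both replicates numbered 7. Syn1, at 613 ± 28.3 and 616 ± 23.3 TPM, differed by -0.0066 ± 0.031, and by 0.032 after median-of-ratios scaling.

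By role, and as deposited, all 5 endocytic genes and all 3 synapsins had lower means in the Poly(I:C) group, with medians of -0.045 and -0.0076. Of all tested genes 71.0% were lower, with a median of -0.035. After median-of-ratios scaling 3 of 5 endocytic genes and 1 of 3 synapsins were lower, beside 50.2% of all genes. Active zone genes were lower in 8 of 11 as deposited and 5 of 11 after that scaling, and calcium sensors in 7 of 9 and 6 of 9. These counts stand beside the same shares of all genes. The most negative difference of the set was that of Doc2a, at -0.18 ± 0.096 (limma adjusted p = 0.597). Doc2a ran from 36.4 through 52.5 to 67.3 TPM in the Poly(I:C) group and from 49.5 through 56.8 to 64.6 TPM in the saline group. Its exons overlap those of Ino80e on the opposite strand, which stood at 67.3 TPM. Exons of Syn1, Syn2, Syn3, Unc13a and Ppfia3 also overlap those of an expressed gene on the opposite strand, and the strand setting of the counting is not stated in the labels.

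The 3 most variable members were Syt2, Cplx3 and Doc2a, with coefficients of variation of 24.6%, 20.9% and 15.5% over the 17 libraries. The steadiest were Vamp2 at 3.70% and Ppfia3 at 3.73%. Single libraries took up many of the extremes. Poly(I:C) replicate 7 held the lowest value of 11 members and the highest of 7. Poly(I:C) replicate 5 held the lowest of 10 members and saline replicate 7 the highest of 9. The median deviation of the members from their means ran from -0.11 to 0.073 in the Poly(I:C) group and from -0.099 to 0.081 in the saline group.

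**Figure D3:**
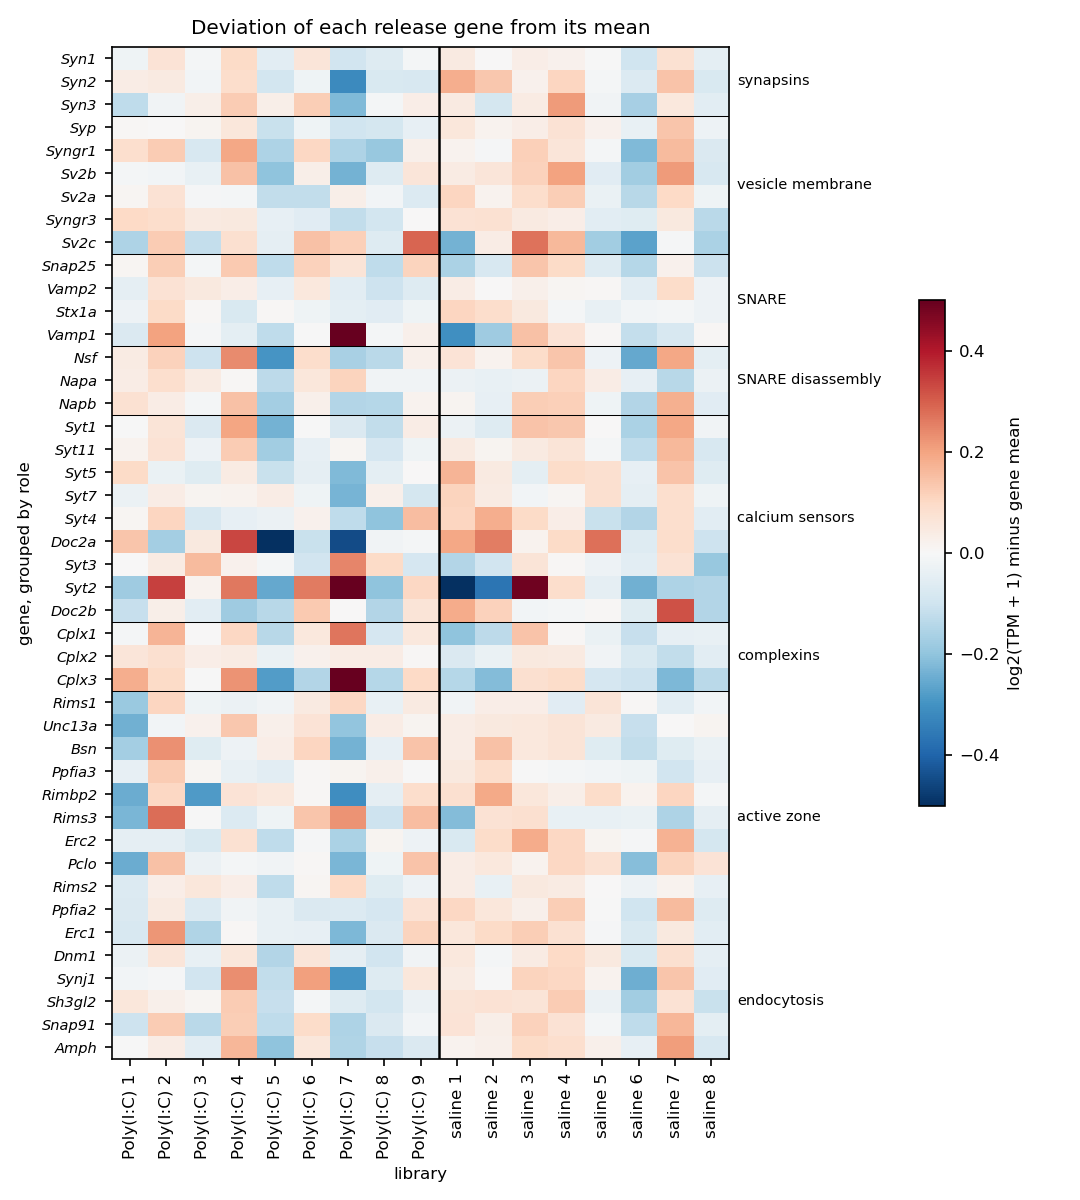
Deviation of each release gene from its mean over the 17 libraries on the log2(TPM + 1) scale, with genes grouped by role and libraries by group. Values beyond 0.5 in either direction take the end colour. Vamp1, Syt2 and Cplx3 were highest in Poly(I:C) replicate 7, where Syn2, Syt7 and Rimbp2 were lowest.

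Syt2, Vamp1 and Cplx1 varied from library to library together with Pvalb, the calcium buffer that marks fast-spiking interneurons. Syt2 is a fast calcium sensor related to Syt1, and Vamp1 is a paralog of Vamp2. The lowest, median and highest levels of Syt2 were 21.04, 27.2 and 40.9 TPM in the Poly(I:C) group and 15.8, 22.7 and 35.8 TPM in the saline group. Those of Vamp1 were 86.5, 94.3 and 134 TPM and 76.3, 92.2 and 105 TPM. The highest values of all 3 genes and of Pvalb fell in Poly(I:C) replicate 7, and within the saline group in replicate 3.

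All 44 members are protein-coding genes in GENCODE M21 (build GRCm38), spread over 19 chromosomes. Syt2 lies at chr1:134646677-134762593, Vamp1 at chr6:125215551-125245964 and Cplx1 at chr5:108518554-108550024. The 250 bases before the first RefSeq start of each of these genes (build GRCm38.p6) are shown because the genes varied together with Pvalb. They lie at chr1:134646362-134646611 on the plus strand for Syt2, chr6:125215331-125215580 on the plus strand for Vamp1 and chr5:108550028-108550277 on the minus strand for Cplx1. Capitals mark the reverse complement of AAGGTCA, the core letters of the element of estrogen-related receptors.
Syt2: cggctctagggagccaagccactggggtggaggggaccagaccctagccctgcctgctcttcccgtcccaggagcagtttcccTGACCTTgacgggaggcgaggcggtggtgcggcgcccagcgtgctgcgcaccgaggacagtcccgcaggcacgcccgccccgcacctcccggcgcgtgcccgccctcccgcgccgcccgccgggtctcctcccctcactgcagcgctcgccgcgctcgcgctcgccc
Vamp1: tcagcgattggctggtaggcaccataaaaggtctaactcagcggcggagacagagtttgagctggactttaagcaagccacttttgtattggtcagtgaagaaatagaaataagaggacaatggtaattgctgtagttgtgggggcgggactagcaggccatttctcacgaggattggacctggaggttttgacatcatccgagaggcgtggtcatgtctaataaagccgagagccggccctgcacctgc
Cplx1: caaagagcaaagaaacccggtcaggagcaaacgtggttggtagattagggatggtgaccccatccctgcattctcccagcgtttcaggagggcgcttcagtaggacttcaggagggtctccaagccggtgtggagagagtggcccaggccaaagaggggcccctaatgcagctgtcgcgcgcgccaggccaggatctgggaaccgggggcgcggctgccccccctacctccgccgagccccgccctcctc

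RefSeq promoters were listed for 34 of the 44 members, 41 in all. AAGGTCA was present on either strand in 1 of these 41, that of Syt2, beside 4.08% of 32851 promoters of the same length. The cyclic AMP response element TGACGTCA was present in 2 of 41, those of Syn1 and Sh3gl2, beside 1.55%, and TATAAA in 2 of 41, both of Sv2b, beside 12.4%. None of these 3 motifs occurs in the Vamp1 and Cplx1 windows. Each motif was searched on its own, so matches of different motifs may overlap.

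Over the 17 libraries Syt2 followed Pvalb with Pearson's r = 0.87 and Spearman's rho = 0.84 (permutation p = 1e-05, the smallest that the resamples can give, and 6e-05). Vamp1 gave r = 0.91 and rho = 0.80 (permutation p = 1e-05 and 0.00024), and Cplx1 gave r = 0.90 and rho = 0.83 (permutation p = 1e-05 and 0.00013). Adjusted over the 6 relations given a permutation p, these were 2e-05 for each r, and 0.00036, 0.00048 and 0.00039 for rho. The adjustment leaves out the correlations of other members and markers, which were computed without a p-value. The relations held without the 2 libraries farthest from the median of Pvalb, Poly(I:C) replicate 7 and saline replicate 2, at r = 0.83, 0.80 and 0.85 for Syt2, Vamp1 and Cplx1. They held within the Poly(I:C) group at r = 0.88, 0.95 and 0.89 (exact permutation p = 0.00051, 0.00037 and 0.0010). Within the saline group r was 0.84, 0.81 and 0.85 (exact permutation p = 0.013, 0.017 and 0.011). After median-of-ratios scaling r was 0.86, 0.92 and 0.91. All points of 1 library share its scaling and its dissection.

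**Figure D4:**
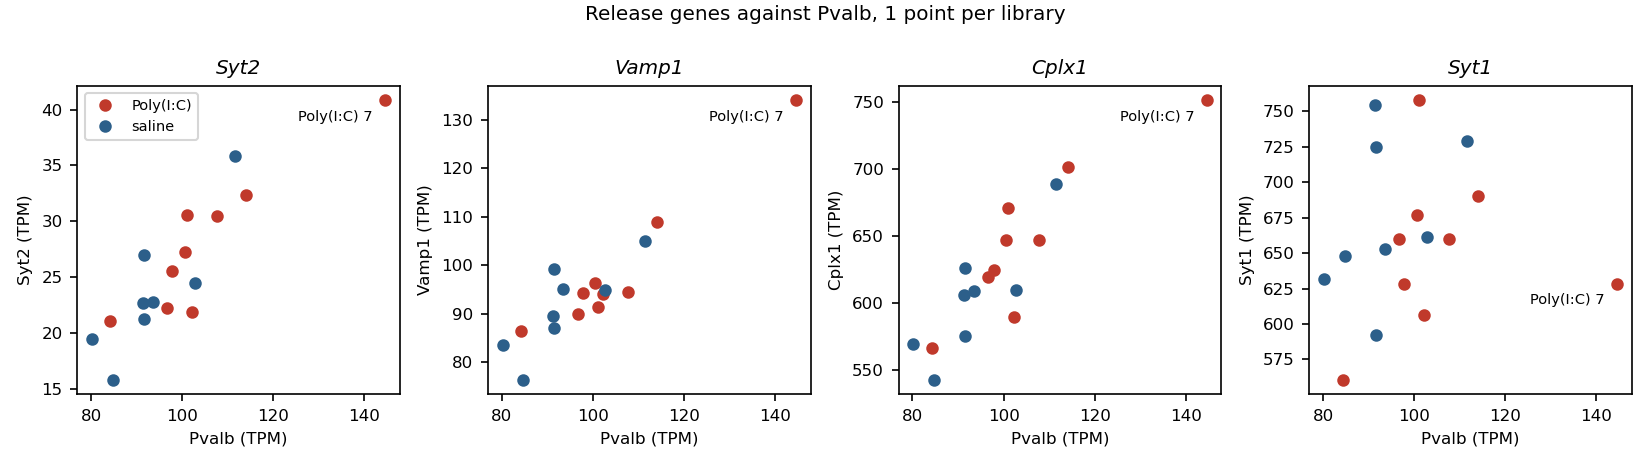
TPM of Syt2, Vamp1, Cplx1 and, for comparison, Syt1 against TPM of Pvalb, with 1 point per library and colours for the groups. The first 3 genes lie along a rising line in both groups, with Poly(I:C) replicate 7 at its upper end, while Syt1 shows no such line (r = 0.165).

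Other members spread widely against Pvalb, a description made after the values were seen. Among the remaining 41 genes r ran from -0.685 for Syt7 to 0.792 for Cplx3, with Syt3 next at 0.622. Against Sst, the marker of another interneuron class, r of Syt2, Vamp1 and Cplx1 was 0.277, 0.306 and 0.398, and against the myelin gene Mbp it was 0.470, 0.627 and 0.572.

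Pvalb itself averaged 105 ± 16.8 TPM after Poly(I:C) (SD, n = 9) and 93.4 ± 9.83 TPM after saline (SD, n = 8), a difference of 0.17 ± 0.080 (limma adjusted p = 0.573) that was 0.10 without both replicates numbered 7. The summed level of 8 interneuron markers ranged from 1547 to 1926 TPM and from 1596 to 1764 TPM in the same order, with none of the 8 at 0. Between the groups Syt2 differed by 0.24 ± 0.14 (adjusted p = 0.618) and Vamp1 by 0.11 ± 0.075 (adjusted p = 0.673). Without both replicates numbered 7 these were 0.17 and 0.050. With Pvalb as a covariate the differences of Syt2, Vamp1 and Cplx1 were 0.00036, -0.031 and 0.0074, an alternative chosen after seeing the data. These genes and Pvalb varied together over the same libraries, and Pvalb had a higher mean after Poly(I:C). Smaller differences with this covariate follow from that and cannot tell why the groups differed. Whether the number of parvalbumin cells sampled has a part in these differences was not tested.

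The other 3 relations between a member and a marker of its best-known cell class were weaker. Cplx3 followed Nxph4, a marker of the deepest cortical layer, with r = 0.67 and rho = 0.44 (permutation p = 0.0037 and 0.076; adjusted 0.0055 and 0.091). Without Poly(I:C) replicates 7 and 8, the farthest from the median of Nxph4, r was 0.40 (permutation p = 0.138), so that the relation no longer held. Within the Poly(I:C) group r was 0.90 (exact permutation p = 0.0010) and within the saline group -0.10 (exact permutation p = 0.81). Without both replicates numbered 7 r was 0.62, and after median-of-ratios scaling 0.64. Nxph4 was low, at 1.17 to 4.45 TPM, and Cplx3 had a higher r with Mbp (0.794) and with Pvalb (0.792). Sv2b followed the glutamate transporter gene Slc17a7 with r = 0.57 and rho = 0.56 (permutation p = 0.018 and 0.021; adjusted 0.022 and 0.031), but r was 0.29 after median-of-ratios scaling. Within the Poly(I:C) and saline groups it was 0.49 and 0.78. Sv2c showed no detectable relation with the mean of 8 striatal markers (r = 0.090, rho = -0.081, permutation p = 0.76 for both), with r = -0.37 without Poly(I:C) replicates 4 and 7, and 0.14 and -0.46 within the groups.

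Ratios of paralogs within a library do not depend on how the library was scaled, and 12 pairs were compared. None passed an adjusted p of 0.05 by the two-sided exact permutation test over 24310 splits, and 2 had an unadjusted p under 0.05. Syn1 exceeded Syn2 by a factor of 2.75 in the lowest, 2.92 in the median and 3.35 in the highest Poly(I:C) library, and of 2.61, 2.77 and 2.92 in the saline group. In 8 of 9 Poly(I:C) libraries it exceeded the saline median. Its log2 difference was 0.096 (exact permutation p = 0.0113, adjusted p = 0.136), and 0.071 without both replicates numbered 7. The ratio of Syt1 to Syt2 was 24.1 ± 4.21 after Poly(I:C) (SD, n = 9) and 29.7 ± 6.07 after saline (SD, n = 8). Its log2 difference of -0.30 (exact permutation p = 0.0443, adjusted p = 0.215) was -0.20 without both replicates numbered 7 (exact permutation p = 0.140).

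The ratio of Ppfia2 to Ppfia3, liprins that organize the active zone, was 0.226 ± 0.010 (SD, n = 9) and 0.240 ± 0.019 (SD, n = 8) (exact permutation p = 0.0537, adjusted p = 0.215). Its log2 difference was -0.088, and -0.051 without both replicates numbered 7. Vamp1 reached 0.075 ± 0.012 of the level of Vamp2 after Poly(I:C) (SD, n = 9) and 0.068 ± 0.0071 after saline (SD, n = 8), with 5 of 9 libraries above the saline median. The log2 difference of 0.13 was 0.070 without Poly(I:C) replicate 7 and 0.056 without both replicates numbered 7. Cplx1 exceeded Cplx2 by a factor of 1.14 ± 0.089 and 1.11 ± 0.061 in the same order. Bsn to Pclo stood at 2.06 and 1.99, Rims1 to Rims2 at 4.32 and 4.28, and Sv2a to Sv2b at 0.932 and 0.916. For Napa to Napb the ratios were 1.67 and 1.58, for Syngr1 to Syngr3 3.42 and 3.43, for Erc1 to Erc2 0.252 and 0.247 and for Doc2a to Doc2b 17.1 and 17.5.

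**Figure D5:**
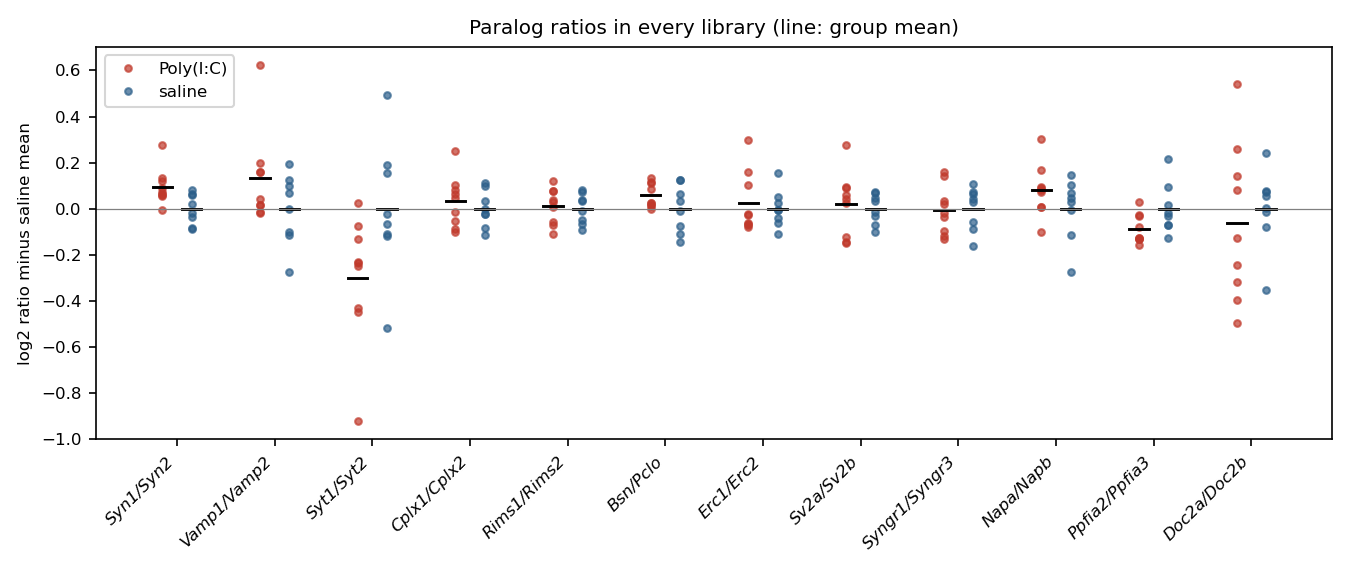
Log2 ratio of 12 paralog pairs in each library, minus the saline mean of that pair, with group means as lines. Poly(I:C) and saline libraries overlap for every pair, and 8 of 9 Poly(I:C) libraries lie above the saline median for Syn1/Syn2.

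Partner genes of the release machinery, in 5 further lists of 91 genes, did not pass either. Of these, 87 were tested. As deposited 65 were lower (74.7%, beside 71.0% of all genes) and 22 higher. After median-of-ratios scaling 36 were lower (41.4%, beside 50.2% of all genes). In limma 0 of 87 passed, and 5 had an unadjusted p under 0.05, all lower (5.75%, beside 8.75% of all genes). The median difference of the 87 was -0.022, beside -0.035 for all genes. Among priming genes, 13 of 18 were lower, led by Unc13b at 17.9 TPM after Poly(I:C) and 19.8 TPM after saline and Stxbp5 at 26.8 and 28.6 TPM. Their most abundant member, Prrt2, stood at 588 and 591 TPM.

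Of the 9 further synaptotagmins and rabphilin, 6 were lower, among them Syt17 at 29.3 and 33.3 TPM and Syt10 at 1.79 and 2.46 TPM. Rph3a, their most abundant member, stood at 285 and 282 TPM. Of 15 further active zone genes 8 were lower, with Tspoap1 at 94.1 and 102 TPM, Apba1 at 72.3 and 75.4 TPM and the vesicle GTPase Rab3a at 728 and 734 TPM. Genes of vesicle membrane and transmitter loading were lower in 16 of 19, among them Synpr at 27.3 and 30.5 TPM, and the proton pump subunit Atp6v0c stood at 1827 and 1815 TPM. Further endocytic genes were lower in 22 of 26, led by Itsn2 at 12.6 and 13.8 TPM and Ap2a2 at 55.9 and 59.4 TPM, with the clathrin-uncoating chaperone Hspa8 at 2171 and 2167 TPM. These shares of lower genes stand beside 71.0% of all tested genes as deposited.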

How the data were processed

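The authors deposited TPM values per gene, 1 column per library, from polyadenylated RNA sequenced as 100 bp single-end reads of strand-specific libraries, per the labels' protocols. The submitters' processing notes list RSEM 1.2.31, STAR 2.5.1b, Trim Galore 0.4.0 and the build mm10. No source used here gives the annotation release or strand setting. RSEM gives genes that share reads an estimated share of them. TPM columns sum to a fixed total, so depth is unknown and a shift in abundant transcripts moves all other values.

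Identifiers were matched to symbols without their version (48058 of 48440). The 14144 genes reaching 1 TPM in 8 or more libraries entered a two-sided limma fit (version 3.58.1, R 4.3.3, eBayes with trend) of log2(TPM + 1). P-values were adjusted over all genes by Benjamini-Hochberg. A fold change on this scale understates that of low genes. The procedure was tested on simulated data in which genes varied independently, without litters or shared library effects. Ratios were compared by exact permutation and correlations by 100000 resamples, or exactly for n under 10 (Python 3.11.15, numpy 2.4.6, scipy 1.17.1, pandas 2.3.3, matplotlib 3.10.9). Overlaps came from GENCODE M21 on GRCm38, the assembly of mm10.

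All 44 members were named with levels, and differences were given for the 10 with the smallest p, for Snap25, Stx1a, Vamp2, Syt1 and Syn1, and for the complexins and the Pvalb-related genes. In each partner list the 2 with the smallest p and the most abundant were named, except 1 gene that is not reported here, and the 3 members with the highest coefficient of variation were described. The members and lists were chosen with earlier results of these data known. Median-of-ratios scaling combined with leaving out both replicates numbered 7, the Pvalb covariate, the motifs and the promoters were chosen after seeing the data. The other alternatives were pseudocounts of 0.1 and 0.5, no filter, a minimum TPM of 5, quantile normalization, removal of mitochondrial genes, the rank test, a replicate block, a myelin covariate, omission of single libraries, and omission of both replicates numbered 7.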

Additional observations from a re-analysis of the deposited data

Results flagged for a closer look

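Of 112 groups of member levels and paralog ratios, 10 held a library separated from the rest of its group by a gap beyond Dixon's 95% critical value, where chance flags about 1 in 20 groups. The groups come from the same 17 libraries and are not independent of each other. Poly(I:C) replicate 7 accounted for 6 of the 10. It had the lowest Syn2, at 171 TPM with its group otherwise at 200.7 to 228 TPM, and the lowest Syt7, at 68.1 TPM where the others lay between 75.4 and 82.3 TPM. It had the highest Vamp1, at 134 TPM (others 86.5 to 109 TPM), and the highest Cplx3, at 13.8 TPM (others 6.46 to 9.58 TPM). Its ratio of Syn1 to Syn2 was 3.35 (others 2.75 to 3.04) and its ratio of Vamp1 to Vamp2 was 0.105 (others 0.067 to 0.078). Both ratios contain a level already flagged, that of Syn2 or Vamp1. Poly(I:C) replicate 7 also had the highest summed myelin and striatal markers, and their part in these values was not tested.

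Poly(I:C) replicate 2 had the highest Stx1a, at 309 TPM where the others lay between 274 and 291 TPM, and the highest Ppfia3, at 93.3 TPM (others 82.4 to 87.0 TPM). Saline replicate 6 had the lowest Unc13a, at 100.5 TPM with the rest of the saline group at 109 to 114 TPM, and the lowest Pclo, at 41.3 TPM (others 48.6 to 52.0 TPM).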

How the results depend on the processing

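No member, partner gene or paralog ratio passed an adjusted p of 0.05 under any alternative. Over all 14144 genes the count was 0 as deposited, 2 with the replicate block, 1 with median-of-ratios scaling without both replicates numbered 7, and 0 to 1 when each library was left out (1 without saline replicate 4). There were 32 lower members in the deposited values, 20 under median-of-ratios scaling and 13 (29.5%, beside 49.3% of all genes) with it without both replicates numbered 7. Members with an unadjusted p under 0.05 numbered 5 as deposited (8.75% of all genes), 0 without both replicates numbered 7 (5.79%) or with Pvalb as a covariate (7.77%), and 2 with a myelin covariate (9.62%). Leaving out each library gave 1 to 8. There were 8 (18.2% of members) without Poly(I:C) replicate 4 (9.94% of all genes) or saline replicate 6 (12.1%), and 1 (2.27% of members) without Poly(I:C) replicate 7 (8.24%) or saline replicate 7 (5.96%). There were 2 without Poly(I:C) replicate 3 (9.06%) or saline replicates 1 (6.72%), 2 (8.08%) or 4 (8.21%), and 3 without Poly(I:C) replicate 9 (8.74%) or saline replicate 5 (7.05%). The cause was not tested.

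Small differences changed sign. Median-of-ratios scaling gave 0.0049 for Stx1a, 0.016 for Vamp2, 0.032 for Syn1, 0.032 for Prrt2, 0.026 for Rab3a and 0.037 for Hspa8. With both replicates numbered 7 also left out it gave 0.023 for Vamp2, 0.045 for Syn1, 0.017 for Prrt2, 0.037 for Rab3a, 0.067 for Hspa8 and 0.011 for Syt1. As deposited without those replicates, Syn1 was 0.015, Rab3a 0.0075, Hspa8 0.038, Sv2a/Sv2b -0.027 and Syngr1/Syngr3 0.014. Quantile normalization gave 0.012 for Vamp2 and -0.077 for Snap25. Removing mitochondrial genes gave 0.0063 for Syn1, 0.0066 for Prrt2 and 0.011 for Hspa8. Hspa8 was 0.021 with the myelin covariate and 0.028 with Pvalb as a covariate, which gave -0.031 for Vamp1. Leaving out each library gave -0.0079 to 0.024 for Atp6v0c, -0.033 to 0.030 for Hspa8, -0.017 to 0.0071 for Prrt2, -0.023 to 0.0033 for Rab3a and -0.021 to 0.0050 for Syn1. For ratios it gave -0.0084 to 0.048 for Erc1/Erc2, -0.0015 to 0.027 for Rims1/Rims2, -0.013 to 0.040 for Sv2a/Sv2b and -0.028 to 0.010 for Syngr1/Syngr3. The relation of Sv2b with Slc17a7 had r = 0.29 after median-of-ratios scaling and 0.48 without both replicates numbered 7, where that of Sv2c with striatal markers was -0.13.

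Replicate numbers 1 to 8 are shared by the groups, but same-numbered libraries did not deviate together: 0 of 8 pairs had a correlation over 0.1 (-0.22 to 0.082), and no saline library matched best with its own number. The replicate block, which leaves out Poly(I:C) replicate 9, gave 2 genes past the threshold and 33 lower members. Precision is limited by the number of libraries, and since TPM keeps no depth, the counting noise of low genes is unknown.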
